A study of Mus musculus with 12 samples.

Results

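Complex I, or NADH:ubiquinone oxidoreductase, was followed here through the mRNA of its nuclear-encoded subunits and of the factors that assemble it, in the livers of mice on 3 diets. Members were the genes whose symbol in the platform annotation starts with Ndufa, Ndufb, Ndufc, Ndufs, Ndufv or Ndufaf. Each gene was read on its brightest probe set that names 1 gene (a set whose identifier ends in _x_at only where there was no other), if the mean signal over the 12 arrays was at least 20. Of 44 such symbols 42 passed, among 11099 genes tested. They comprised 33 subunits, 8 assembly factors (Ndufaf1 to Ndufaf8) and Ndufa4, which is now placed with cytochrome c oxidase and was kept apart. Ndufa4l2 was under the floor, at a mean signal of 19.0, as was the single-gene probe set of Ndufb4, at 8.27, and the dimmest gene retained was Ndufaf5, at 41.3. Ndufs6, Ndufa11 and Ndufb4 were otherwise read only by probe sets that name several genes and were not counted. The subunits encoded in mitochondrial DNA were not analysed here.

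C57BL/6 mice, 8 weeks old at the start, received for 8 weeks normal chow (NC), a high-fat diet deficient in methionine and choline (MCD+HF), or that diet containing 0.1% metformin (MCD+HF+Met). Livers were taken in the fasted state, and 4 arrays per group, one per numbered liver, gave 12 arrays. The MCD+HF diet is a dietary model of nonalcoholic steatohepatitis (NASH), and it changed fat, methionine and choline together, so that their parts cannot be told apart. No group received metformin on normal chow.

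Complex I accepts electrons from NADH and passes them along a chain of iron-sulfur clusters to ubiquinone, while moving protons across the inner mitochondrial membrane. Its matrix arm carries the catalytic core, its membrane arm the proton channels, and many accessory subunits surround both. Assembly factors build the arms as separate modules and leave the finished enzyme. Hepatocytes are rich in mitochondria, and complex I is a known target of metformin at high concentration, although the array measured only mRNA.

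The liver label was borne out by its markers: Alb, the gene for albumin, gave a signal of 17085 in NC. Between 2 arrays, the correlation of log2 signals was from 0.894 to 0.988. The deposited signals had been scaled array by array, so each value is a level relative to the rest of the RNA. The mean over all probe sets was 193 to 203 for the NC arrays, 163 to 172 for MCD+HF and 167 to 177 with metformin. The 3' to 5' ratio of the actin control probes, a measure of RNA integrity, averaged 1.73 ± 0.141 (SD, n = 4) for NC, 1.54 ± 0.0698 for MCD+HF and 1.74 ± 0.114 with metformin. The same ratio of the Gapdh control probes averaged 0.71 ± 0.012, 0.70 ± 0.012 and 0.757 ± 0.0449, highest with metformin. The part of these differences in the results was not tested.

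The promoters of the members were read from RefSeq (GRCm38.p6), as 250 bases before to 50 after the start of the gene, for 38 of the 42. The 3 below belong to the subunit with the smallest adjusted p on the diet, Ndufb11, and to the pair of genes called with metformin. They are the 250 bases before the start, written 5' to 3' on the strand of the gene, with capitals for a CCAAT box (CCAAT, or ATTGG on the other strand). The minus-strand positions are chrX:20617620-20617869 for Ndufb11, chr19:3912775-3913024 for Ndufs8 and chr9:108567437-108567686 for Ndufaf3.
Ndufb11: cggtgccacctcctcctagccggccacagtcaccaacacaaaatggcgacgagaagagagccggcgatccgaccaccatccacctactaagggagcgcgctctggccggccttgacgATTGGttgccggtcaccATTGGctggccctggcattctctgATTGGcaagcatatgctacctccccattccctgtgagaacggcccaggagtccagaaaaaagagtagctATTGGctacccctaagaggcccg
Ndufs8: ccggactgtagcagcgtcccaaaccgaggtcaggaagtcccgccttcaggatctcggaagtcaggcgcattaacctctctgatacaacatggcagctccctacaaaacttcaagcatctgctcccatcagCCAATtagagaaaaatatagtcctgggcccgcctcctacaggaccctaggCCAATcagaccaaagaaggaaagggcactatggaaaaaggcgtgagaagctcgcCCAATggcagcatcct
Ndufaf3: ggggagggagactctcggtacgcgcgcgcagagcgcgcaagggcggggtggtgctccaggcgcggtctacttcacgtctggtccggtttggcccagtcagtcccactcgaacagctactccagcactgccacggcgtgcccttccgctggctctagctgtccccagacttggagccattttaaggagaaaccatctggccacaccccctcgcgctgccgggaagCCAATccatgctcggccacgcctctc
Ndufb11 has 4 such boxes, Ndufs8 has 3 and Ndufaf3 has 1. The CCAAT box was added to the search after these sequences had been read. It was present in 8 of 30 subunits and 4 of 7 assembly factors with a promoter, and in 41.1% of 27025 promoters.

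Letters bound by factors known for respiratory genes were searched on both strands of the same windows. GCGCATGC, for NRF1, was in 2 of 30 subunits (Ndufa6 and Ndufa8) and 2 of 7 assembly factors, and in 3.05% of all promoters. CCGGAAG, for ETS factors such as GABPA, was in 4 subunits (Ndufb6, Ndufb7, Ndufs3 and Ndufs8) and 2 factors, against 9.93%. In Ndufs8 it begins 16 bases after the start, outside the printed stretch. AAGATGG, for YY1, was in 6 subunits and 1 factor, against 7.28%. AAGGTCA, for estrogen-related receptors, was in 2 subunits and 0 factors (5.38%), and TGACGTCA, for CREB, was in 2 and 0 (2.03%). None of these letter strings contains another, and a match is a description of the sequence, not of binding.

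The mRNA of most complex I subunits was lower on the MCD+HF diet. Compared with NC, 23 of 33 subunits were lower and 1, Ndufa2, was higher (limma, Benjamini-Hochberg adjusted p under 0.05). Among all genes tested 20.8% were lower and 27.4% were higher. Bright genes were lower more often: of the 1837 genes whose mean signal reached 500, 41.0% were called lower. The median change of the subunits was -0.43 on the log2(signal + 10) scale, ranging from -0.88 to 0.33, beside 0.05 for all genes and -0.15 for the bright genes. In 23 of 33 subunits every MCD+HF array lay under every NC array, which was so for 20.1% of all genes. The subunit median depended on the scaling: with quantile normalization it was -0.20, with 16 subunits lower, and with each array centred on its median it was -0.57, with 26 lower. Median centring moved the median of all probe sets by -0.136, and over all probe sets the share of calls that were higher went from 58.1% to 42.0%. For MCD+HF+Met minus MCD+HF that share went from 35.9% to 50.6% under median centring, and for MCD+HF+Met minus NC from 55.9% to 45.3%.

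**Figure D1:**
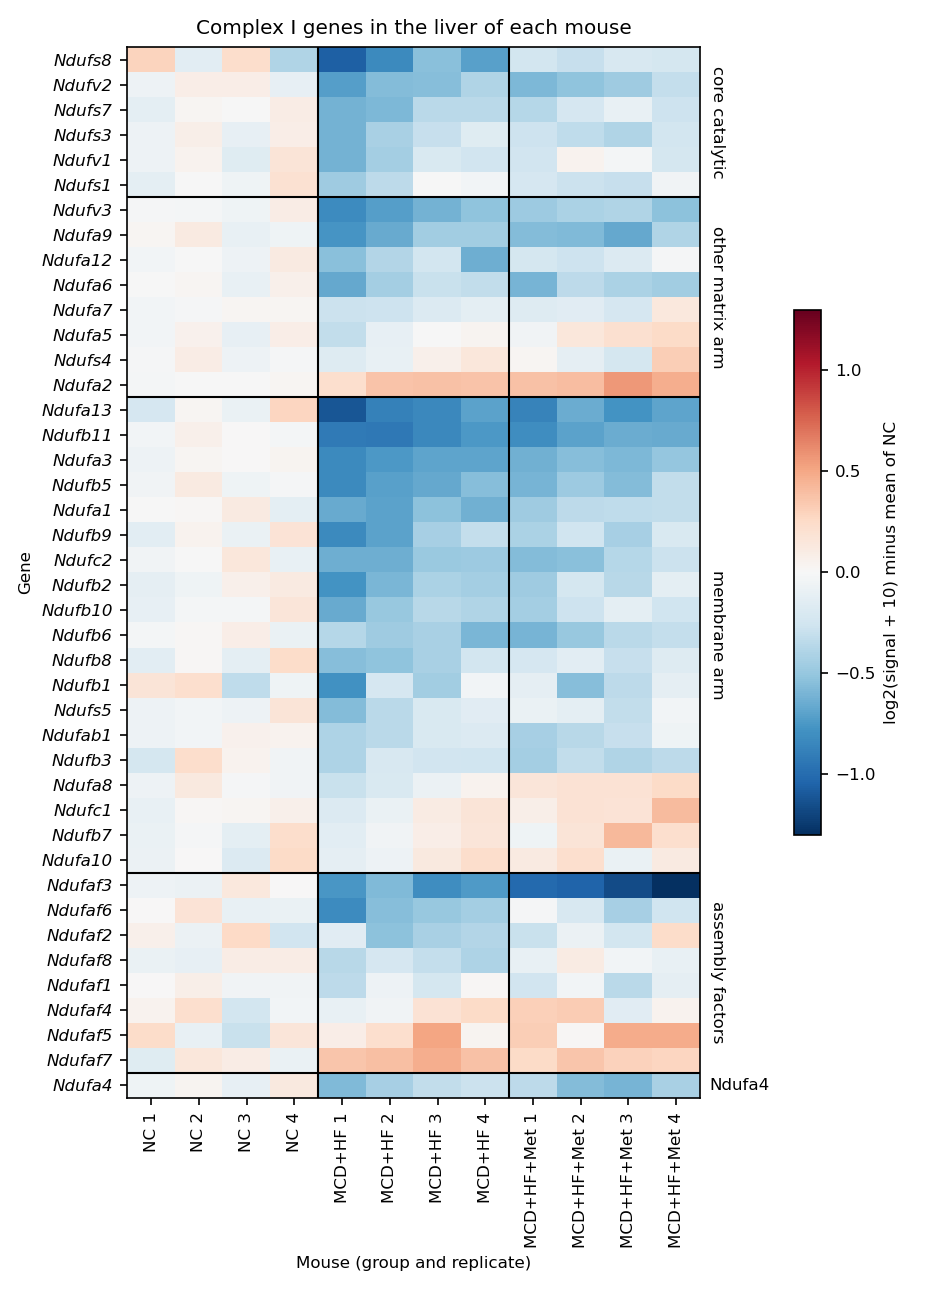
Level of each of the 42 complex I genes (rows, ordered by role and by the change with diet) in each of the 12 livers (columns, 4 per group), as log2(signal + 10) minus the mean of the 4 NC arrays, with blue for lower and red for higher. Most subunit rows are blue in the MCD+HF columns and paler in the MCD+HF+Met columns, while Ndufa2 and Ndufaf7 are red in both.

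In the catalytic core, 5 of 6 subunits were lower in MCD+HF, with a median of -0.43. Ndufs8, which carries iron-sulfur clusters close to the ubiquinone site, had the largest change of the 6. Its signals were 3646.1, 2711.9, 3503.3 and 2275.7 in NC and 1423.7, 1671.3, 2037.7 and 1820.1 in MCD+HF. The groups did not overlap, although the NC arrays spread widely, and the difference was -0.79 ± 0.137 (SE, adjusted p = 2.47e-04). All 6 probe sets of Ndufs8 were lower, by -0.39 to -0.91. Ndufv2, an iron-sulfur subunit of the NADH-oxidising module, averaged 2056 ± 138 (SD, n = 4) in NC and 1395 ± 130 in MCD+HF (-0.56, adjusted p = 1.44e-04). It was lower on 2 of its 3 probe sets. Ndufs7, which holds the last cluster before ubiquinone, averaged 1457 ± 94.2 and 1046 ± 105 (-0.48, adjusted p = 6.76e-04). These 3 subunits stand at the electron entry and exit of the arm. Ndufv1, which binds NADH and flavin, went from 1349 ± 133 to 1043 ± 137 (-0.37, adjusted p = 0.013). That call was lost with quantile normalization (adjusted p = 0.0866) and with the methods' t-test after Benjamini-Hochberg adjustment (adjusted p = 0.053). Ndufs3, a scaffold of the ubiquinone module, went from 1619 ± 112 to 1253 ± 168 (-0.37, adjusted p = 0.00598), also lost with quantile normalization (0.0694). Ndufs1, the largest iron-sulfur subunit, did not pass the test, at 897 ± 90.0 and 778.7 ± 121 (-0.21, 95% interval -0.45 to 0.03, adjusted p = 0.153).

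Of the 8 other matrix-arm subunits, 4 were lower and 1 was higher, with a median of -0.32. Ndufv3, a small subunit of the NADH module, read 2598.5, 2569.1, 2513.7 and 2808.3 in NC and 1486.0, 1596.0, 1709.6 and 1821.7 in MCD+HF, a difference of -0.67 ± 0.082 (SE, adjusted p = 9.26e-06). Ndufa9, which joins the matrix arm to the membrane arm, read 1927.0, 2054.2, 1769.5 and 1824.0 in NC and 1109.2, 1195.2, 1376.6 and 1375.2 in MCD+HF (-0.58, adjusted p = 1.29e-04). Both genes had a clear gap between the groups. Ndufa12 (-0.45) and Ndufa6 (-0.43) were also lower, whereas Ndufa7, Ndufa5 and Ndufs4 did not pass, at -0.21, -0.10 and -0.01. Ndufa7 (adjusted p = 0.0589) was lower with the methods' t-test (0.00963), median centring (0.0183), the fit of the 2 groups (0.0371) or the replicate block (0.0449), and without MCD+HF+Met replicate 4 (0.0231). Of the 5 probe sets of Ndufa7, 1 was lower, at -0.72, and 4 did not pass. Ndufa12 was lower on 3 of its 4 probe sets and higher on the dim one, with a mean signal of 46.2. Ndufa2, an accessory subunit with a thioredoxin-like fold, went the other way, from a mean of 1589 ± 24.3 in NC to 2007 ± 105 in MCD+HF (0.33 ± 0.075 SE, adjusted p = 0.002). Every MCD+HF array was above every NC array, but the call was lost under median centring (0.20, adjusted p = 0.0924).

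In the membrane arm, 14 of 19 subunits were lower and none was higher, with a median of -0.46. None was higher with the methods' t-test or at an unadjusted p under 0.05 either. The largest fall of all members was in Ndufa13, also known as GRIM-19, a subunit at the junction of the arms. Its signals were 3873.8, 4571.0, 4224.7 and 5457.3 in NC and 2067.3, 2442.0, 2506.0 and 2767.7 in MCD+HF. The highest MCD+HF array was well under the lowest NC array, and the difference was -0.88 ± 0.111 (SE, adjusted p = 1.06e-05). Ndufb11, an X-linked accessory subunit of the membrane arm, read 3937.1, 4232.6, 4054.1 and 3961.8 in NC and 2131.8, 2122.9, 2266.1 and 2405.2 in MCD+HF. Its promoter is the one printed with 4 CCAAT boxes. The arrays lay close together within each group, and the gene had the smallest adjusted p of the members (-0.86 ± 0.075, 2.32e-07). Ndufa3, a small membrane-arm subunit, read 3155.9, 3361.3, 3313.5 and 3386.2 in NC and 1853.5, 1959.9, 2043.3 and 2051.4 in MCD+HF (-0.74, adjusted p = 7.11e-07).

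Ndufb5, an accessory subunit of the membrane arm, read 1992.7 to 2249.3 in NC and 1163.2 to 1407.5 in MCD+HF (-0.69, adjusted p = 1.39e-05). Ndufa1, which had the brightest probe set of the members in NC, read 5087.6 to 6056.4 and 3445.4 to 3853.8 (-0.62, adjusted p = 8.21e-06). Brightness also reflects the probes, so it does not rank the genes by mRNA. Ndufb9 read 3952.4 to 4911.9 in NC and 2438.9 to 3498.4 in MCD+HF (-0.57, adjusted p = 6.80e-04), and its call was lost with quantile normalization (0.0737). Ndufc2 read 3385.0 to 3997.9 and 2321.0 to 2602.9 (-0.56, adjusted p = 1.07e-04). In none of these 4 genes did the groups overlap. Ndufc2 was lower on 2 of its 4 probe sets, and the other 2 did not pass. Ndufb2, Ndufb10, Ndufb6, Ndufb8, Ndufs5, Ndufab1 and Ndufb3 were also lower, by -0.28 to -0.55. Ndufb2 was lower on 2 of 3 probe sets and Ndufb8 on 1 of 2. Leaving out MCD+HF replicate 1 ended the call of Ndufs5 (adjusted p = 0.0805), Ndufab1 (0.0665) and Ndufb3 (0.0823). So did leaving out MCD+HF replicate 2 (0.0534) or NC replicate 4 (0.0681) for Ndufs5, MCD+HF replicate 2 (0.0626) or NC replicate 3 (0.0538) for Ndufab1, and NC replicate 2 (0.108) or 3 (0.0631) for Ndufb3. The methods' t-test after Benjamini-Hochberg adjustment ended the calls of Ndufs5 (0.0663) and Ndufb3 (0.0778). Quantile normalization ended these 3 calls and those of Ndufb6 (0.106) and Ndufb8 (0.0686). For Ndufab1, the acyl carrier protein, 1 of 4 probe sets was lower and 3 did not pass, and another probe set that names Ndufs5 also names a processed copy of it, so their values are uncertain. Ndufb1, Ndufa8, Ndufc1, Ndufb7 and Ndufa10 did not pass, with changes from -0.37 to 0.04.

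The assembly factors were dimmer, with mean signals in NC from 35.2 to 566.9. In MCD+HF 4 of 8 were lower and 1 was higher, with a median of -0.24. Among all genes 20.8% were lower and 27.4% higher. Ndufaf3, which builds the ubiquinone module, read 216.0, 214.9, 250.5 and 227.8 in NC and 130.5, 149.1, 125.5 and 132.6 in MCD+HF, with no overlap (-0.72 ± 0.115 SE, adjusted p = 1.14e-04). Its usual partner Ndufaf4 averaged 566.9 ± 74.6 and 597.4 ± 71.9 and did not pass (0.08, 95% interval -0.20 to 0.35). Ndufaf6, needed for the making of the mitochondrially encoded subunit at the base of the membrane arm, read 220.2, 248.5, 204.6 and 205.0 in NC and 120.2, 145.6, 152.6 and 159.0 in MCD+HF (-0.58, adjusted p = 0.00113). Ndufaf8 averaged 532.2 ± 41.3 and 423.4 ± 24.4 (-0.32, adjusted p = 0.00965), while Ndufaf5, the partner it stabilises, was near the floor at 35.2 ± 7.35 and 42.3 ± 7.99 (0.21, adjusted p = 0.32). Ndufaf2, which acts late on the matrix arm, averaged 138.2 ± 22.3 and 104.1 ± 13.3 (-0.37, adjusted p = 0.0467). That call was lost in 10 of 22 alternatives, with adjusted p up to 0.142: with the methods' t-test, no filter or the replicate block, and without MCD+HF replicate 2, 3 or 4, NC replicate 1, 2 or 3, or MCD+HF+Met replicate 2. Ndufaf7, a mitochondrial methyltransferase, was higher, at 94.0 ± 10.4 and 126.8 ± 4.84 (0.40, adjusted p = 0.00582). The rise of Ndufaf7 did not pass under median centring (0.26, adjusted p = 0.0654). Ndufaf1, a member of the membrane-arm assembly complex, averaged 301.7 ± 12.4 and 271.1 ± 31.4 (-0.16, adjusted p = 0.252). Ndufa4, kept apart, was lower (2883 ± 216 to 2182 ± 195, -0.40, adjusted p = 0.00232), a call lost with quantile normalization (-0.05, adjusted p = 0.69).

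**Figure D2:**
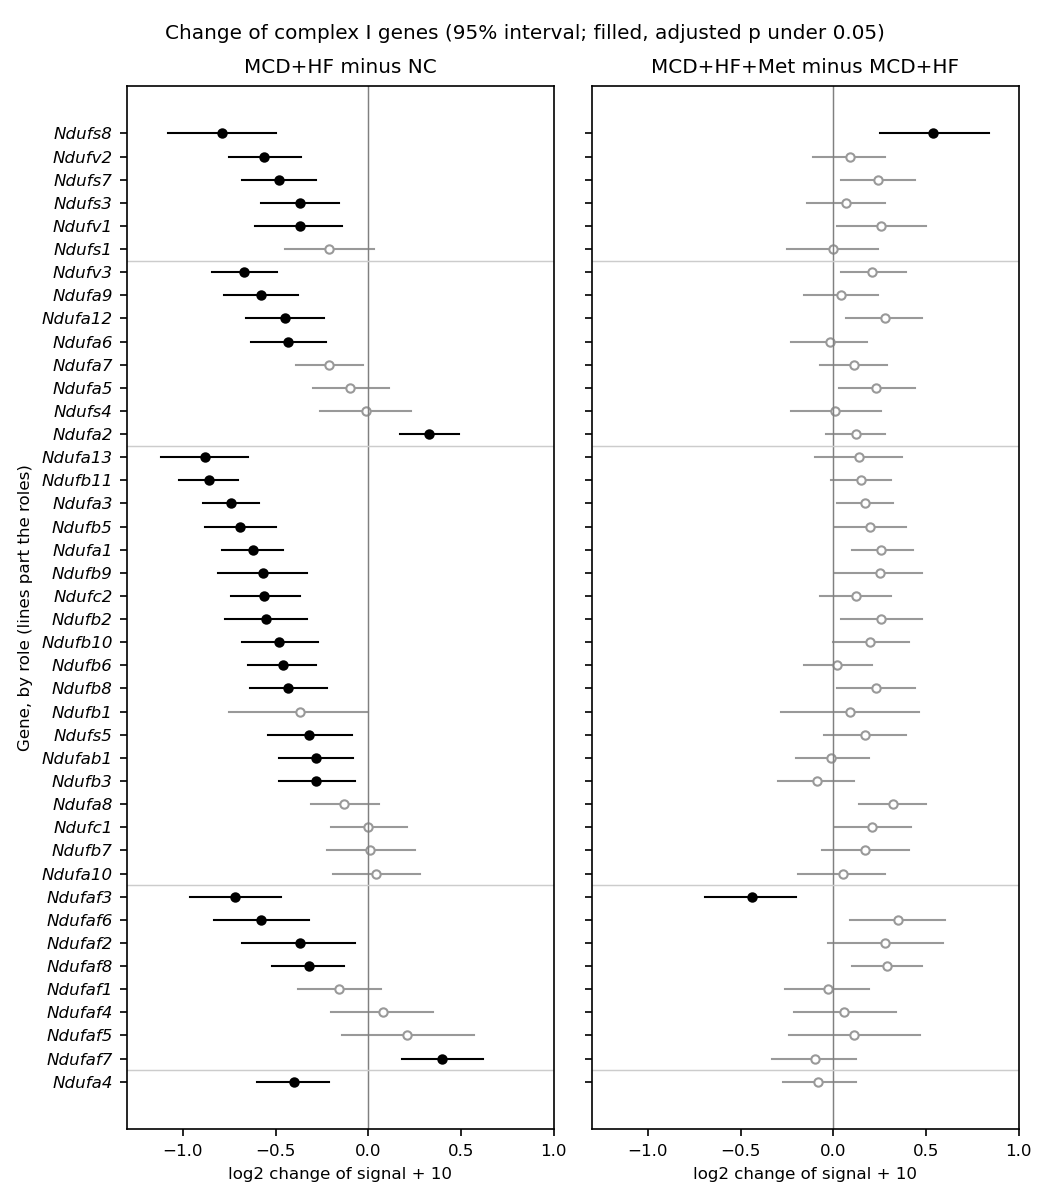
Change of each of the 42 genes on the log2(signal + 10) scale for MCD+HF minus NC (left) and MCD+HF+Met minus MCD+HF (right), with 95% intervals from limma; filled points had an adjusted p under 0.05. On the left 23 subunits and 4 assembly factors are filled to the left of 0; on the right the filled points are Ndufs8, higher, and Ndufaf3, lower.

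With metformin in the diet most subunits had slightly higher values, and few single genes passed the test. Between MCD+HF+Met and MCD+HF, 1 of 33 subunits, Ndufs8, was higher and 0 were lower. Among all genes 1.63% were higher and 2.34% lower, and among the bright genes 4.19% were higher. At an unadjusted p under 0.05, 14 subunits were higher and 0 lower. At that cut 1110 of 11099 genes were higher and 1087 lower, and 382 of the 1837 bright genes were higher and 151 lower. The methods' t-test after Benjamini-Hochberg adjustment called 0 subunits. It called only 2 of the 11099 genes higher and 3 lower, so its 0 says little about the subunits. The median subunit change was 0.17 (range -0.09 to 0.54), beside 0.01 for all genes and 0.08 for the bright genes, and 29 of 33 subunits had a point estimate above 0, against 51.6% of all genes and 65.2% of the bright genes. Without MCD+HF replicate 1 the median was 0.12 and 24 of 33 estimates were above 0. The groups did not overlap, with metformin higher, in 5 subunits (Ndufs8, Ndufa1, Ndufa3, Ndufa8 and Ndufa2), and this was so for 6.42% of all genes. The median change was 0.16 in the core, 0.12 in the other matrix-arm subunits and 0.17 in the membrane arm.

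Ndufs8 read 2527.4, 2427.0, 2575.8 and 2546.1 in MCD+HF+Met, each above every MCD+HF array and within the wide range of the NC arrays. The difference from MCD+HF was 0.54 ± 0.137 (SE, adjusted p = 0.0396), but 4 of its 6 probe sets did not pass, and the estimates of the 6 ran from 0.16 to 0.54. The adjusted p ranged from 0.0193 to 0.479 over 23 alternatives, and leaving out MCD+HF replicate 1 (0.103), 2 (0.107) or 4 (0.0604), NC replicate 2 (0.0511) or any MCD+HF+Met replicate (0.0685 to 0.0885) ended the call. Ndufa8, a membrane-arm subunit exposed to the intermembrane space, read 1263.0, 1344.7, 1467.6 and 1591.6 in MCD+HF and 1717.7, 1755.6, 1752.7 and 1832.6 in MCD+HF+Met. The groups did not overlap, but the difference of 0.32 missed the threshold (adjusted p = 0.0541). Ndufa1 was similar, at 3445.4 to 3853.8 and 4039.9 to 4474.0 (0.26, adjusted p = 0.0696).

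For Ndufa13 and Ndufb11, the subunits with the largest falls on the diet, the test against MCD+HF was not passed. Ndufa13 read 2452.8, 2878.4, 2610.4 and 2782.5 with metformin (0.14, 95% interval -0.10 to 0.37, adjusted p = 0.541). Ndufb11 read 2301.5, 2485.5, 2577.4 and 2565.1 (0.15, 95% interval -0.01 to 0.31, adjusted p = 0.281). Of the core subunits, Ndufv1 averaged 1247 ± 131 with metformin, Ndufs7 1234 ± 97.3, Ndufv2 1484 ± 123, Ndufs3 1306 ± 60.9 and Ndufs1 772.4 ± 64.4. None of these 5 passed the test against MCD+HF (adjusted p from 0.175 to 0.996).

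Among the assembly factors 1 of 8, Ndufaf3, was lower with metformin and 0 were higher, beside 2.34% lower and 1.63% higher of all genes. At an unadjusted p under 0.05, 2 were higher and 1 lower, and of 11099 genes 1110 were higher and 1087 lower. The methods' t-test called 0 of the 8, and of all genes only 2 higher and 3 lower. With 8 genes, such small counts do not set the factors apart from all genes. Ndufaf3 read 107.7, 105.1, 96.1 and 78.3 with metformin, each under every MCD+HF array (-0.44 ± 0.115 SE, adjusted p = 0.0463). Its difference from NC was -1.16. The metformin call lay at the threshold and held in 5 of 22 alternatives, with adjusted p from 0.0339 to 0.145, and leaving out any MCD+HF or MCD+HF+Met replicate, or NC replicate 1, 2 or 4, ended it. Ndufaf6 read 217.3, 188.0, 159.4 and 181.7 with metformin, above every MCD+HF array (0.35, adjusted p = 0.123), and Ndufaf8 averaged 520.2 ± 35.9 (0.29, adjusted p = 0.0926). Neither passed. Ndufaf2 (129.3 ± 23.8), Ndufaf4 (626.4 ± 98.7), Ndufaf5 (46.6 ± 8.19), Ndufaf7 (117.3 ± 4.13) and Ndufaf1 (264.0 ± 26.0) did not pass either, and their differences ran from -0.10 to 0.28.

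**Figure D3:**
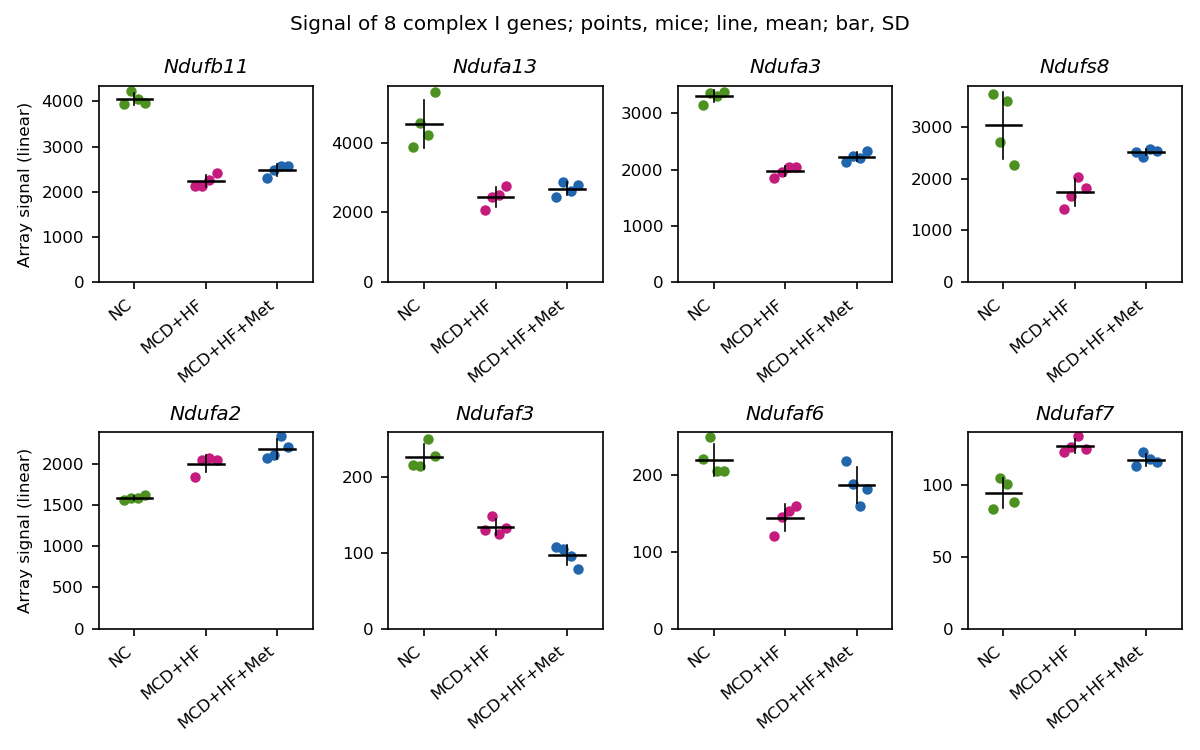
Linear array signal of 8 complex I genes in NC, MCD+HF and MCD+HF+Met; points are the 4 livers of a group, the horizontal line is the mean and the vertical bar the SD. Ndufs8 lies between 2427.0 and 2575.8 in the metformin arrays, above all MCD+HF arrays, whereas Ndufaf3 steps down from 227.3 to 134.4 and 96.8 and Ndufa2 steps up.

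Against NC, many subunits were lower in the metformin-treated livers. In MCD+HF+Met minus NC, 17 of 33 subunits were lower and 1, Ndufa2 (0.46, adjusted p = 1.84e-04), was higher, with a median of -0.28. Among all genes 18.6% were lower and 25.6% higher, and 36.3% of the bright genes were lower. The groups did not overlap, with metformin lower, in 17 of 33 subunits, against 17.3% of all genes. By arm, 12 of 19 membrane-arm subunits, 3 of 8 other matrix-arm subunits and 2 of 6 core subunits were lower. The count fell to 9 with quantile normalization, where the median was -0.14. Of the assembly factors, 1 was lower (Ndufaf3, adjusted p = 1.21e-06) and 1 was higher (Ndufaf7, 0.30, adjusted p = 0.0347), and the call of Ndufaf7 was lost in 9 of 22 alternatives, among them leaving out NC replicate 1 (0.101) or 4 (0.0776), or MCD+HF+Met replicate 1 (0.0507), 2 (0.0835) or 3 (0.0611). On a second probe set Ndufaf8 was lower than in NC (-0.50, adjusted p = 0.00943) and Ndufaf4 was higher (0.34, 0.0392). Second probe sets of the subunits Ndufa10 (0.54), Ndufc1 (0.27) and Ndufa5 (0.35) were also higher.

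All 17 subunits lower in this comparison were among the 23 lower without metformin. The other 6 were Ndufs7, Ndufs8, Ndufv1, Ndufb8, Ndufs5 and Ndufa12, of which 3 belong to the catalytic core. For Ndufs8, 4 of the 6 probe sets were nevertheless lower than in NC (all 6 between -0.23 and -0.37), and the one used here was lower without NC replicate 4 (-0.37, adjusted p = 0.0284). Ndufs7, at an adjusted p of 0.054, was lower in 5 of 23 alternatives: with a mean signal of at least 50, median centring or the replicate block, and without MCD+HF+Met replicate 3 (0.0365) or NC replicate 1 (0.0432). For 20 of the 23 the difference from NC was smaller with metformin than without. The 23 were picked for low values in these MCD+HF arrays, which by itself favours a smaller difference in another group, so this count shows no effect of metformin. Both comparisons use the same NC arrays, and the difference between them is the metformin comparison already given, in which only Ndufs8 of these passed, so for the others a difference between the treated and untreated livers was not shown.

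The livers of a group differed among themselves. Averaged over the 33 subunits, log2(signal + 10) relative to the NC mean was -0.053 to 0.051 in NC. It was -0.56, -0.434, -0.31 and -0.278 in MCD+HF replicates 1 to 4, and -0.317, -0.246, -0.252 and -0.149 with metformin. The livers with and without metformin overlapped, and all 8 lay under the 4 NC livers. Replicate 1 was the lowest of its group in 15 of 33 subunits in NC, 28 in MCD+HF and 20 with metformin, and replicate 4 was the highest in 20, 20 and 19. Without MCD+HF replicate 1 the diet comparison gave 20 lower subunits and a median of -0.39.

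**Figure D4:**
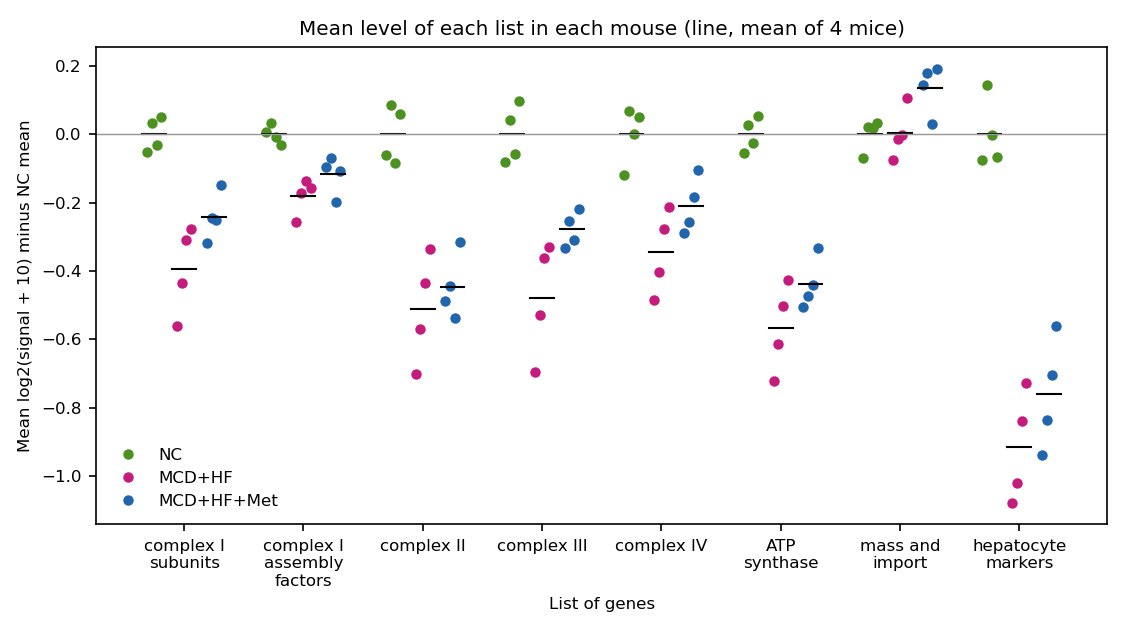
Mean log2(signal + 10) minus the NC mean for 8 lists of genes in each liver (points, 4 per group; line, mean of the group). Complex I subunits, the other respiratory complexes and ATP synthase lie under 0 in every MCD+HF and MCD+HF+Met liver, hepatocyte markers lie lowest, and the mass and import list lies around 0 or above.

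The other respiratory complexes, tested in the same fit, were also mostly lower. With MCD+HF, 4 of 4 complex II genes were lower (median -0.54), 8 of 9 of complex III (-0.44), 7 of 9 of complex IV (-0.39) and 12 of 14 of ATP synthase (-0.57), and none was higher at an adjusted or an unadjusted p under 0.05 or with the methods' t-test. Examples were Sdhb, the iron-sulfur subunit of succinate dehydrogenase (-0.72), Uqcrb of complex III (-0.85), Cox6a1 of complex IV (-0.68) and Atp5c1, the gamma subunit of ATP synthase (-0.85). With metformin 1 of these genes was higher, Cyc1, the cytochrome c1 of complex III (0.44, adjusted p = 0.0193). The small upward shift with metformin was not particular to complex I. Estimates above 0 were 3 of 4 in complex II (median 0.09), 8 of 9 in complex III (0.22) and 8 of 9 in complex IV (0.16). They were 14 of 14 in ATP synthase (0.11) and 10 of 11 among hepatocyte markers (0.11). Of 11 complex I assembly factors outside the Ndufaf symbols, 5 were lower on the diet, led by Timmdc1 (-0.88), Dmac1 (-0.53) and Dmac2 (-0.53), and 7 were lower and 1 higher in MCD+HF+Met minus NC. For comparison, on the diet 20.8% of all genes and 41.0% of the bright genes were lower, and 27.4% of all genes were higher. In MCD+HF+Met minus NC, 18.6% of all genes and 36.3% of the bright genes were lower, and 25.6% of all genes were higher. With metformin against MCD+HF, 1.63% of all genes were higher.

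Genes of mitochondrial mass and protein import moved in both directions. On the diet 4 of 15 were higher and 6 lower, with a median of 0.03: Immt, of the cristae junctions, and Cs, citrate synthase, rose (0.63 and 0.56), and Timm44, of the import motor, fell (-0.42). Among 12 regulators of mitochondrial biogenesis 2 were higher and 4 lower. For comparison, 27.4% of all genes tested were higher and 20.8% lower. The share of higher genes was above that of all genes in neither list. Ppargc1a, the coactivator PGC-1 alpha, went from 162 ± 35.0 to 568 ± 346 (1.54, adjusted p = 0.00135), with a wide spread in MCD+HF. Gabpa, a subunit of the ETS-family factor that binds many respiratory genes, was lower (-0.73), as was Ppargc1b (-0.74).

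Markers of cell types moved in the same comparison. In MCD+HF 10 of 11 hepatocyte markers were lower, with a median of -0.95, and their summed signal was 137866 to 161229 in NC, 68662 to 85794 in MCD+HF and 75941 to 95745 with metformin. The part of cell composition in the complex I result was not tested. Of the other lists, 8 of 12 macrophage markers, 9 of 10 stellate and myofibroblast markers and 5 of 5 cholangiocyte markers were higher, and 2 macrophage markers were lower. Summed macrophage signal was 3041 to 3922 in NC, 6702 to 9571 in MCD+HF and 2916 to 4826 with metformin, when 6 of the 12 were lower than in MCD+HF. Averaged on the log2 scale relative to the NC mean, the list was at -0.24 to 0.15 in NC. It was at 1.37 to 1.68 in MCD+HF and at 0.42 to 0.98 with metformin. Compared with NC, 6 of the 12 were higher with metformin and 2 lower. Summed stellate signal was 1494 to 1839, 4365 to 6348 and 3854 to 6168, and summed cholangiocyte signal was 24 to 81, 343 to 490 and 219 to 500. Of 8 endothelial markers 1 was higher and 3 lower, and 1 of 10 lymphocyte markers was bright enough to test, at -0.20. In whole liver, fewer hepatocytes and less complex I mRNA per hepatocyte cannot be told apart.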

How the data were processed

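Liver RNA of 12 mice, 4 per group, was hybridised to 3' expression arrays with 45101 probe sets. The authors made linear signal intensities with GCOS (GeneChip Operating System) after scaling each array to an average of 100; the trimmed mean of every deposited array was 100. Probe sets were named from the platform annotation. Control probe sets (64) and those with a mean signal under 20 were left out, and log2(signal + 10) of 22830 probe sets was fitted with limma 3.58.1 (lmFit, contrasts.fit and eBayes with trend, R 4.3.3) in 1 model of 3 groups, with Benjamini-Hochberg adjustment over all of them and a threshold of 0.05. A fold on this scale understates changes of dim genes. Number of arrays limits the precision. The labels number the livers, and p-values measure the spread between these samples.

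The members and the 18 gene lists were chosen with earlier results of these data known. Named genes were every core subunit and assembly factor, every member called with metformin, the 5 largest rises and falls called on the diet, the brightest and dimmest members, up to 3 genes of a list, and members whose probe sets disagree. Other members were named to account for all, and Ndufa8 after its values were seen. Values in every array were planned for at most 12 genes, and Ndufa8 was added. Alternatives were other offsets (0 and 32), filters (none, or a mean of at least 50), quantile normalization, median centring, a replicate block, robust variance, fits of the 2 groups compared, the methods' t-test, a second probe set and leaving out each array. What is called the methods' t-test was a t-test with Benjamini-Hochberg adjustment and without a fold cut. It is not the full rule of the study. The study required p under 0.05 by t-test, with no adjustment stated, a difference of more than 1.5-fold and a change call from GCOS. That rule was not applied here, so a call lost with the adjusted t-test was not shown to fail it. The fit was tested on simulated data. The study's real-time PCR was not used here.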

Additional observations from a re-analysis of the deposited data

Results flagged for a closer look

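Of 126 sets of 4 arrays (42 genes in 3 groups), 3 held an array far from the rest, by a gap to the next array that passed Dixon's critical value for 4 samples. Chance gives about 1 in 20 such sets. Ndufa1 read 4039.9 in MCD+HF+Met replicate 1, the lowest of 4, with the next at 4417.5. Ndufs5 read 1504.2 in NC replicate 4, the highest of 4, with the next at 1311.1. Ndufa2 read 1848.9 in MCD+HF replicate 1, the lowest of 4, with the next at 2054.1. Over the 33 subunits, replicate 1 was the lowest of its group in 15 (NC), 28 (MCD+HF) and 20 (MCD+HF+Met), and replicate 4 the highest in 20, 20 and 19.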

How the results depend on the processing

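The fall of the subunits on the diet kept its direction in every alternative run, with 16 to 26 subunits lower and 20 to 24 when 1 array was left out (main 23). Assembly factors lower on the diet were 3 to 4. Over the values of single members under the alternatives, 2693 stayed on their side of the threshold, 107 lost a call in the same direction and 31 gained one. Of changes called in the main fit, 3 turned sign, each on a second, dimmer probe set. Of values for changes that were not called, 50 of 1644 turned sign, 43 of them without a change of probe set, so the direction of uncalled changes is not settled. On the diet Ndufab1 was 0.08 (adjusted p = 0.815), Ndufb2 was 0.12 (0.7) and Ndufa12 was 0.75 (0.00425), and with metformin, where the main value was not called, Ndufa12 was -1.09 (0.00559). The cause was not tested.

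The small counts moved. Subunits higher on the diet were 0 under median centring, 2 with quantile normalization and 2 with the second probe set, and assembly factors higher were 0 under median centring. Subunits higher with metformin were 2 with a mean signal of at least 50, 2 with quantile normalization, and 0 with the methods' t-test, no filter or the second probe set, which gave 1 subunit lower; leaving out 1 array gave 0 to 1. Assembly factors lower with metformin were 0 under median centring, quantile normalization, the methods' t-test, no filter, the fit of 2 groups or the replicate block, and 0 to 1 when 1 array was left out. In MCD+HF+Met minus NC, subunits lower were 9 with quantile normalization and 13 to 18 when 1 array was left out. Subunits higher were 2 with the methods' t-test, 5 with quantile normalization, 2 with the replicate block and 4 with the second probe set. Assembly factors higher were 0 under median centring, no filter, the fit of 2 groups or quantile normalization, 2 with the second probe set, and 0 to 1 when 1 array was left out, and assembly factors lower were 2 with the second probe set. The cause was not tested.

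Over all probe sets, the deviations of livers with the same number correlated by -0.134 to 0.251, not all above 0.1, so the numbers were not taken to pair them. Over the 33 subunits, replicate 1 was most often the lowest of its group and replicate 4 most often the highest, in all 3 groups. With the number as a replicate block, 24 subunits were lower on the diet and 18 in MCD+HF+Met minus NC, and Ndufs8 was higher with metformin.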
